A study of Mus musculus with 4 samples.

Results

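Mesoderm and early heart formation are followed here through 9 transcription factors and 1 receptor, 10 genes in all: T, Eomes, Mixl1, Mesp1, Kdr, Hand1, Hand2, Nkx2-5, Tbx5 and Tbx20. They were chosen by name from the 25965 genes of an RNA-seq table. All 10 were listed there. The 4 libraries came from mouse embryonic stem cells (mESCs), labelled female and FVB/CAST F1, which the study derived from FVB/NJ dams and CAST/EiJ sires; a growth protocol in the labels speaks of Xmas mESC lines instead. A single library came from undifferentiated cells grown in 2i, a medium with inhibitors of MEK and GSK3 (day 0), and 3 came from day 6 of differentiation by weaning into DME HiHi, a serum medium without 2i and LIF. The day 6 cells carried a hairpin with no target (Nons) or 1 of 2 hairpins against Smarca4, named Smarca4.4 and Smarca4.6, transduced on day 2 and selected with puromycin from day 3. A genotype label calls all 3 day 6 libraries a Smarcc knockdown, Nons included, and calls day 0 a nonsilencing control, so groups were taken from the sample titles. Each group held 1 library with the replicate number 3, so there was no spread between replicates and no difference has a replicate check.

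Mesoderm forms when epiblast cells leave the primitive streak under Wnt, Nodal and BMP signals. T (Brachyury), Eomes and Mixl1 are switched on in the streak, Mesp1 follows in the earliest cardiovascular progenitors, and Kdr encodes a VEGF receptor carried by progenitors of vessels, blood and heart. Hand1, Hand2, Nkx2-5, Tbx5 and Tbx20 then specify heart muscle, and several of these genes have other sites of action: Eomes and Hand1 also act in the trophoblast, and Hand1 in extraembryonic mesoderm. The protein made from Smarca4 is the motor of the BAF nucleosome remodeller.

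The guide strands of the 3 hairpins are shown because every contrast below rests on them. Capitals mark the seed, bases 2 to 8, and the letters are those of the DNA oligonucleotides listed by the study.
Smarca4.4: tTTATTACtgtctgactccagt
Smarca4.6: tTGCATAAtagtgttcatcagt
Nons: cTTACTCTcgcccaagcgagag
Each Smarca4 guide was fully complementary to transcripts of 1 gene in GENCODE M21, Smarca4 itself, and the Nons guide matched no transcript. No member held a near full-length site for any of the 3 guides. Matches to the seed alone were not searched for. The Smarca4.4 site lay in the 3′ UTR at chr9:21703327-21703348 on the plus strand (mm10) and the Smarca4.6 site in the coding sequence at chr9:21670504-21670525.

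Depth ran from 18599402 reads at day 0 to 47143739 in Smarca4.4, with 45759793 in Nons and 36495575 in Smarca4.6. The level that 3 reads represent, used here as the floor, was 0.161 CPM (counts per 1000000 reads) at day 0 and from 0.0636 to 0.0822 CPM at day 6. The targeted gene Smarca4 had 4542 reads at day 0 and 10478 in Nons, a log2 difference of -0.09 once scaled for depth. It stood at 57.3% of its Nons level with Smarca4.4 and at 75.8% with Smarca4.6. The cell identity was checked with 12 pluripotency genes: all had at least 3 reads at day 0, their summed level was 4857 CPM there and between 888 and 1162 CPM at day 6, and 11 were at least 2-fold lower in Nons than at day 0. Pou5f1 was the exception, with a log2 difference of 0.34, and Nanog and Sox2 went from 18584 to 2777 and from 8268 to 2059 reads. With the hairpins 1 of these genes, Tbx3, was at least 2-fold lower than Nons, in Smarca4.6. The libraries are labelled female, yet 4 Y-linked genes together had 106 to 165 reads in the day 6 libraries and 0 at day 0, and the part of this in the results below was not tested. These are bulk libraries, in which fewer cells of a type and less RNA per cell cannot be told apart.

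Of the 10 members, 3 were at or near the absence of signal. Mesp1 had 0 reads at day 0, in Nons and in Smarca4.4 and 1 in Smarca4.6. Hand2 had 2 reads at day 0 and 0 in each day 6 library, and Tbx5 had 1 read in each library other than Smarca4.6, where it had 0. On mm10 these genes lie at chr7:79792241-79793788 (Mesp1), chr8:57320983-57324517 (Hand2) and chr5:119834663-119885218 (Tbx5). All were under the floor in all 4 libraries, so no fold change is given for them. The other 7 had at least 3 reads in every library, but only 4 of them, T, Eomes, Hand1 and Tbx20, had a mean log2 CPM of at least 0 over the libraries, the filter that left 13264 genes of the table. T passed at a mean of 0.14 through its level at day 0 and in Smarca4.6, so a gene with its pattern could only have passed by differing between libraries. Mixl1, at -0.70, was the member nearest below the filter.

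**Figure D1:**
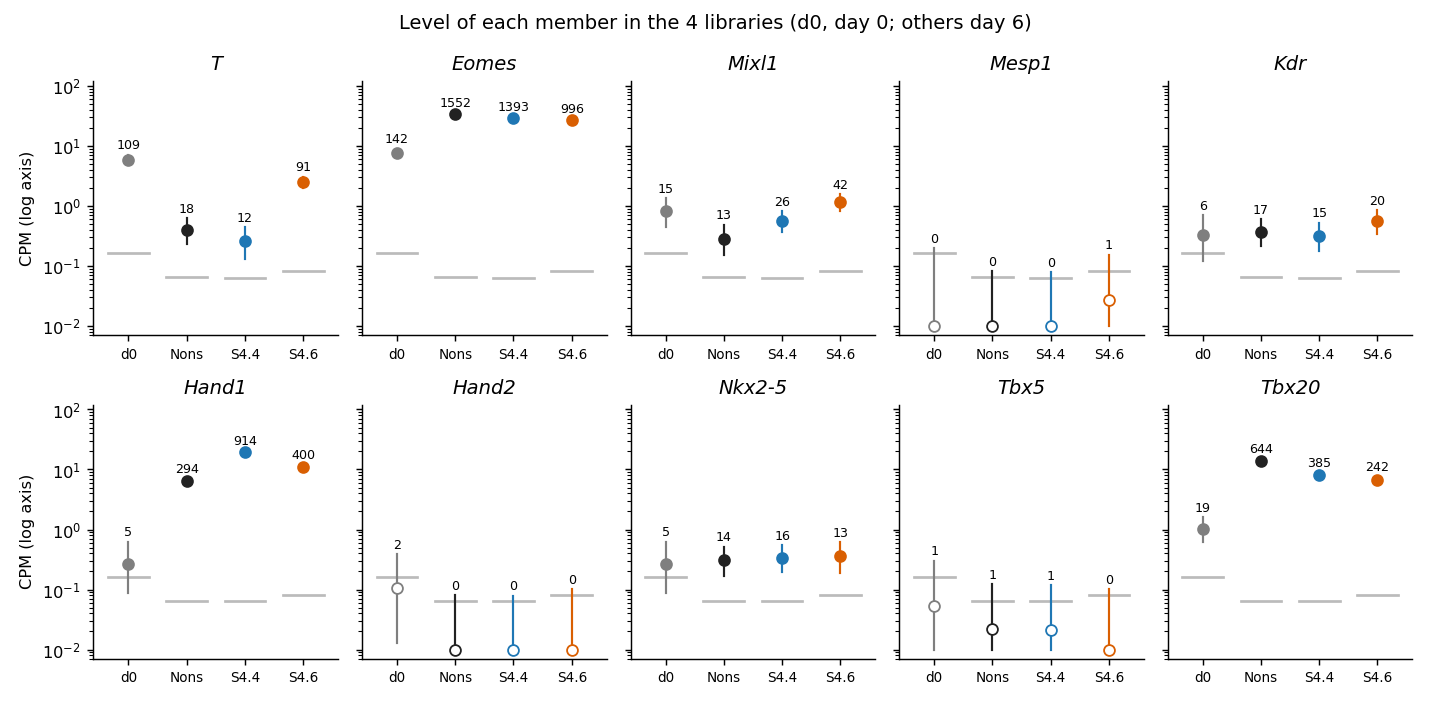
Level of each of the 10 members in the 4 libraries, in CPM on a log axis, with read counts printed above the points. Vertical lines are exact Poisson 95% intervals, grey bars mark the level of 3 reads, open points are under 3 reads and 0 reads are drawn at the foot of the axis. Mesp1, Hand2 and Tbx5 are open in all 4 libraries, T is highest at day 0 and in Smarca4.6, and Hand1 is highest in Smarca4.4.

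Among the streak genes, T and Eomes went opposite ways between day 0 and Nons day 6. T (chr17:8434423-8442496, plus strand, mm10) is the T-box factor of the streak, notochord and tail bud and a known target of Wnt signalling. It had 109 reads at day 0, 18 in Nons, 12 with Smarca4.4 and 91 with Smarca4.6, which are log2 CPM values of 2.55, -1.35, -1.97 and 1.32. The libraries fell into a high pair, day 0 and Smarca4.6, and a low pair, Nons and Smarca4.4. Within the high pair Smarca4.6 was the lower, at 2.49 CPM (2.01 to 3.06) against 5.86 CPM (4.81 to 7.07) at day 0. Relative to day 0, T in Nons was 14.9-fold lower, a log2 difference of -3.90 with an exact 95% interval of -4.70 to -3.17. The intervals of differences throughout are Clopper-Pearson intervals of the 2 read counts, so they cover counting error only and compare 2 libraries, not 2 conditions.

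Eomes (chr9:118478212-118486132, plus strand) encodes the T-box factor needed for definitive endoderm and for the cells that become cardiac mesoderm. It was the most abundant member in Nons, with 142 reads at day 0, 1552 in Nons, 1393 with Smarca4.4 and 996 with Smarca4.6, or log2 CPM values of 2.93, 5.08, 4.88 and 4.77. All 3 day 6 libraries lay above day 0, and Nons exceeded day 0 by 2.15 (1.90 to 2.41). Mixl1 (chr1:180693043-180697034, minus strand), a homeobox gene of the streak, had 15 reads at day 0, 13 in Nons, 26 with Smarca4.4 and 42 with Smarca4.6. Once scaled for depth these are log2 CPM values of -0.31, -1.82, -0.86 and 0.20, and Nons was lower than day 0 by a log2 difference of -1.51 (-2.70 to -0.33). By value Smarca4.6 and day 0 were its upper pair and Nons was its lowest library. The intervals of day 0, at 0.81 CPM (0.45 to 1.33), and Smarca4.4, at 0.55 CPM (0.36 to 0.81), overlapped, so the pairs seen for T were not resolved for Mixl1.

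The heart regulators split between 2 genes that were much higher at day 6 and the rest, which were low throughout. Hand1 (chr11:57828705-57832818, minus strand), a basic helix-loop-helix factor of the left ventricle, extraembryonic mesoderm and trophoblast giant cells, had 5 reads at day 0, 294 in Nons, 914 with Smarca4.4 and 400 with Smarca4.6. The log2 CPM values were -1.90, 2.68, 4.28 and 3.45, so all day 6 libraries were far above day 0 and both hairpins were above Nons. Nons exceeded day 0 by 4.58 (3.34 to 6.21). Tbx20 (chr9:24720812-24774303, minus strand), a T-box factor of the heart tube and valves, had 19 reads at day 0, 644 in Nons, 385 with Smarca4.4 and 242 with Smarca4.6. The log2 CPM values were 0.031, 3.81, 3.03 and 2.73. Here too every day 6 library lay above day 0, but Nons was the highest of the 3 for Tbx20 and the lowest for Hand1. Nons exceeded day 0 by 3.78 (3.13 to 4.53).

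Kdr (chr5:75932827-75978458, minus strand) and Nkx2-5 (chr17:26838664-26841565, minus strand), the homeobox factor of heart progenitors, were above the floor without a clear change. In the order day 0, Nons, Smarca4.4, Smarca4.6, Kdr had 6, 17, 15 and 20 reads and Nkx2-5 had 5, 14, 16 and 13. Their differences between Nons and day 0 were 0.20 (-1.21 to 1.83) and 0.19 (-1.37 to 2.01). These intervals reach past 2-fold either way, so a difference was not detectable at this depth.

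For the 4 members that passed the filter, 3 were at least 2-fold higher in Nons than at day 0, against 19.6% of the 13264 genes, and 1, T, was at least 2-fold lower, against 12.3%, which is 31.9% in either direction. Their median difference was 2.97 beside 0.031 for all genes that passed. Over all 10 members it was -0.56, but that median holds the members under the floor. Of these, Mesp1 had 0 reads in both libraries and Tbx5 1 in each, so their values of -1.30 reflect depth and not a change in level. The interval of the difference left out 0 for all 4, which was so for 82.9% of genes at this depth, 42.8% above 0 and 40.1% below.

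Smarca4 knockdown was compared with Nons at day 6 for each hairpin by itself, since both contrasts share the Nons library. In Smarca4.4, Hand1 was 3.02-fold higher than in Nons, a log2 difference of 1.59 (1.40 to 1.79), and ranked 19 from the top of the 13264 genes. It was the only 1 of the 4 members past 2-fold, beside 1.19% of genes, of which 0.882% were higher and 0.309% lower. Tbx20 differed by -0.79 (-0.97 to -0.60) and Eomes by -0.20 (-0.30 to -0.09), so 3 of the 4 were beyond counting error, 1 above and 2 below 0. Of all genes that passed, 58.7% were, 34.4% above and 24.3% below. T differed by -0.63 with an interval of -1.81 to 0.51. The median of the 4 was -0.41 beside 0.038 for all genes that passed.

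In Smarca4.6, T was 6.34-fold higher than in Nons, a log2 difference of 2.66 (1.92 to 3.48), and ranked 3 from the top of the 13264 genes. T passed the filter partly through this level, so its rank and count here are not independent of it. Tbx20 was 2.12-fold lower, at -1.09 (-1.30 to -0.87). These were the only 2 of the 4 members past 2-fold, 1 in each direction, beside 1.82% of genes, of which 1.03% were higher and 0.799% lower. No member was 2-fold higher or lower with both hairpins, beside 0.392% and 0.121% of genes. With a pseudocount of 1 CPM the difference of T became 1.33 and that of Tbx20 -0.98, so that Tbx20 no longer passed 2-fold. Hand1 differed by 0.77 (0.55 to 0.99) and Eomes by -0.31 (-0.43 to -0.20). All 4 were beyond counting error, 2 in each direction, as were 64% of genes, 39.6% above 0 and 24.4% below. The median of the 4 was 0.23 beside 0.064 for all genes that passed. Among the members that did not pass, Mixl1 was 4.05-fold higher, at 2.02 (1.09 to 3.04) on 42 against 13 reads, and its value for Smarca4.4 was 0.96 (-0.06 to 2.04). With Smarca4.4 and then Smarca4.6, Kdr differed by -0.22 (-1.33 to 0.87) and 0.56 (-0.45 to 1.58), and Nkx2-5 by 0.15 (-0.98 to 1.30) and 0.22 (-0.99 to 1.42).

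**Figure D2:**
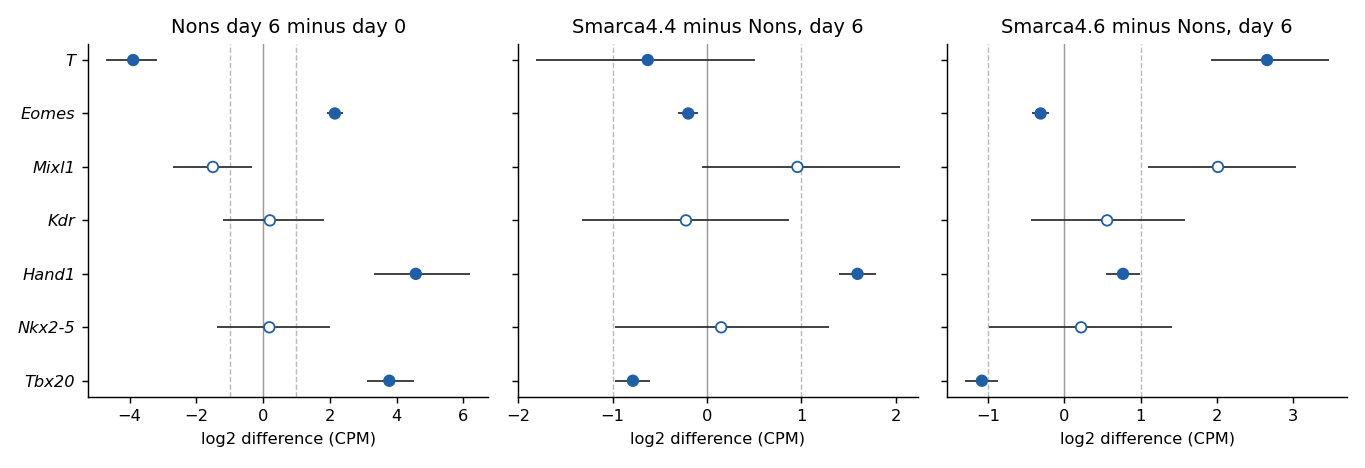
Log2 differences in CPM for the 7 members with at least 3 reads in every library, with exact 95% counting intervals, for Nons against day 0 and for each hairpin against Nons. The scale of the horizontal axis differs between panels, dashed lines mark 2-fold, and open points did not pass the filter. Hand1 lies to the right and Tbx20 and Eomes to the left of 0 with both hairpins, whereas T lies at -0.63 for the former hairpin and 2.66 for the latter.

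The 2 knockdown libraries were also set directly against each other, a contrast that does not use Nons and was added after the values had been seen. T was lower in Smarca4.4 than in Smarca4.6 by a log2 difference of -3.29 (-4.30 to -2.42), and no gene that passed the filter had a more negative value. It was the only 1 of the 4 members at least 2-fold lower, beside 0.241% of genes, and 0 members were higher by that much, beside 0.415%, which is 0.656% in either direction. T passed the filter through its level at day 0 and in Smarca4.6, so its place and count here are not independent of that level. Hand1 was higher in Smarca4.4 by 0.82 (0.65 to 1.00) and Tbx20 by 0.30 (0.06 to 0.54), while Eomes differed by 0.11 with an interval of -0.0037 to 0.23. The interval left out 0 for 3 of the 4, 2 above and 1 below, and for 52.8% of all genes that passed, 21.9% above and 30.9% below. Mixl1 was lower in Smarca4.4, at -1.06 (-1.83 to -0.32).

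**Figure D3:**
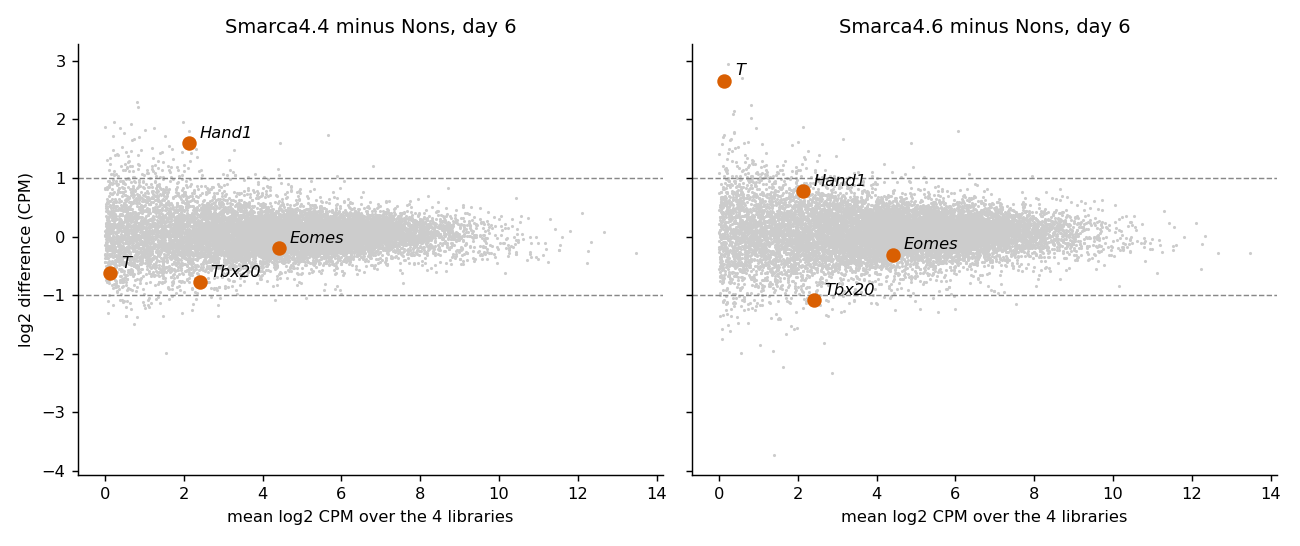
Log2 difference from Nons against the mean log2 CPM over the 4 libraries for the 13264 genes that passed the filter (grey) and the 4 members among them (orange), with Smarca4.4 on the left and Smarca4.6 on the right. Dashed lines mark 2-fold. Hand1 stands at 1.59 on the left and T at 2.66 on the right, where the spread of grey points is wide at its low mean level.

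Levels were compared between members per kilobase of merged exon. In Nons, Eomes was highest at 8.16 CPM per kb (7.76 to 8.58), followed by Hand1 at 3.22 (2.86 to 3.61) and Tbx20 at 1.17 (1.08 to 1.27), and the counting intervals of these did not overlap. Nkx2-5 at 0.178, T at 0.170 and Mixl1 at 0.124 CPM per kb had overlapping intervals, and Kdr was lowest of the 7 at 0.0411 (0.0240 to 0.0659). The order was different in the other libraries. At day 0 T was highest at 2.53 (2.08 to 3.05), with Eomes at 1.84 (1.55 to 2.17), and these intervals overlapped. In Smarca4.4 Hand1 was highest at 9.71 (9.09 to 10.36) and Eomes was next at 7.11 (6.74 to 7.49). In Smarca4.6 Eomes at 6.57 (6.17 to 6.99) stood above Hand1 at 5.49 (4.96 to 6.05), and T at 1.08 (0.867 to 1.32) took the third place.

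Other genes of the primitive streak and early mesoderm were read from a list of 22, of which 10 passed the filter. Between day 0 and Nons, 3 of the 10 were at least 2-fold higher and 3 lower, with a median of 0.28. In Smarca4.4 none of the 10 was 2-fold different and the median was 0.029. In Smarca4.6 1 was higher, none was lower, and the median was 0.37. That gene was Fgf8, a growth factor of the streak, named here after its values were seen. Fgf8 had 5 reads at day 0, 76 in Nons, 45 with Smarca4.4 and 190 with Smarca4.6, so it differed from Nons by -0.80 (-1.36 to -0.25) and 1.65 (1.26 to 2.05). Wnt3, the Wnt ligand that starts the streak in the embryo, likewise chosen after seeing its values, stood on opposite sides of Nons, at -0.64 (-1.07 to -0.22) and 0.48 (0.12 to 0.85). Fgf8 and Wnt3 were the 2 genes of the list past the filter that were at least 2-fold lower in Smarca4.4 than in Smarca4.6, as T was.

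Among genes of that list that did not pass, also chosen after their values were seen, Sp5, a direct Wnt target, had 297 reads at day 0, 7 in Nons, 17 with Smarca4.4 and 35 with Smarca4.6. Cdx1 had 546, 1, 11 and 12 reads and Cdx2 26, 10, 12 and 22 in the same order. Day 0 was highest for Sp5 and Cdx1, as it was for T. Nons was lowest for Sp5 and Cdx1, whereas T was lowest in Smarca4.4, within counting error of Nons. Smarca4.6 exceeded Smarca4.4 for Sp5 and Cdx2, whereas for Cdx1 the interval of that difference, -1.82 to 0.81, included 0. The 3 most abundant genes of the list in Nons were Tdgf1, a Nodal co-receptor, Fgf4 and Lefty2, a Nodal inhibitor. With Smarca4.4 their differences from Nons were -0.036, -0.15 and 0.24, and with Smarca4.6 they were 0.25, -0.27 and 0.51. The presomitic mesoderm factors Tbx6 and Msgn1 were again picked after the values were seen. Tbx6 had 0 reads at day 0 and 25, 25 and 22 at day 6, while Msgn1 had 1 at day 0 and 0 in each day 6 library. Of the 12 genes of the list below the filter, 2 were at least 2-fold higher and 5 lower in Nons than at day 0 beyond counting error, and 1 was higher with Smarca4.4 and 3 with Smarca4.6 than in Nons. The share over all genes below the filter was not computed, so these counts, and those for the lists that follow, have no background.

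**Figure D4:**
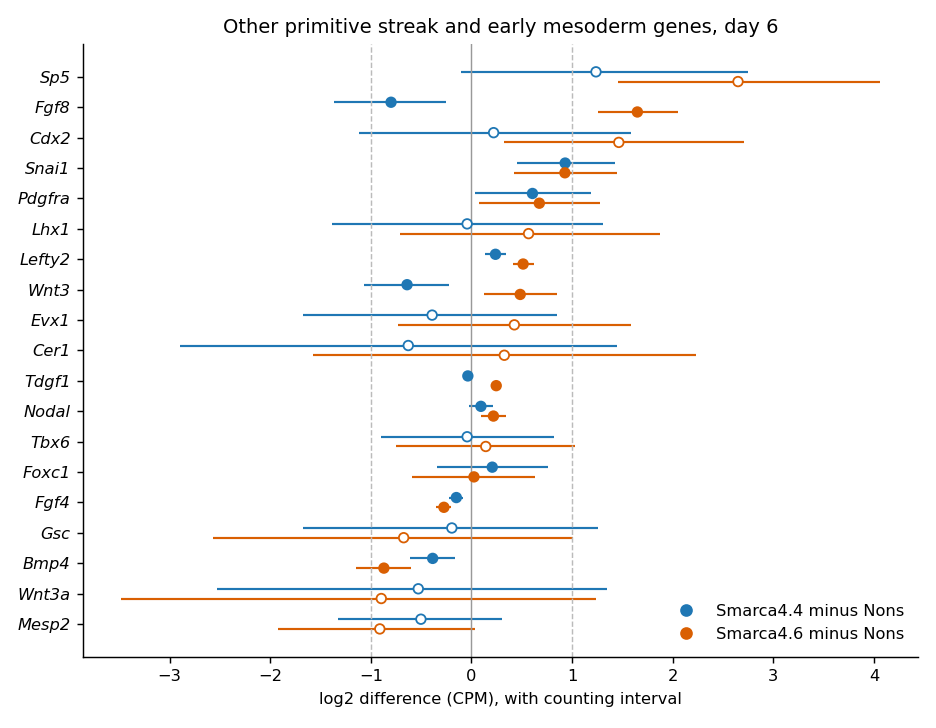
Log2 difference from Nons at day 6, with exact 95% counting intervals, for the 19 other primitive streak and early mesoderm genes with at least 3 reads in each day 6 library, Smarca4.4 in blue and Smarca4.6 in orange. Open points did not pass the filter and dashed lines mark 2-fold. Fgf8 lies at -0.80 and 1.65 and Wnt3 at -0.64 and 0.48, while Snai1 lies at 0.93 with both hairpins.

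The list of 22 further heart field regulators had 8 genes past the filter, of which 4 were at least 2-fold higher and 1 lower in Nons than at day 0. None of the 8 was 2-fold different in Smarca4.4 and 1, Tbx3, was lower in Smarca4.6. Of the 14 below the filter, 2 were higher and 5 lower in Nons than at day 0 by that much and beyond counting error. Against Nons, 2 were higher and 1 lower with Smarca4.4, and 1 was higher with Smarca4.6. These counts too have no background share beside them. The most abundant were Wt1, Hopx and Smarcd3. Wt1, a zinc finger factor of the epicardium and kidney, had 1 read at day 0 and 815 in Nons, while Hopx, a cofactor of early heart muscle, had 25 and 600. Smarcd3, a BAF subunit of the heart, had 139 reads at day 0 and 272 in Nons. Scaled for depth, Smarcd3 was lower in Nons by a log2 difference of -0.33 (-0.63 to -0.02). Gata4, which works with Nkx2-5 and Tbx5 on heart promoters and is named here after its values were seen, had 17 reads at day 0 and 102, 140 and 136 in Nons and the Smarca4.4 and Smarca4.6 libraries. Isl1, a marker of the second heart field chosen in the same way, had 0, 27, 33 and 21 reads.

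Genes of heart and skeletal muscle, most of them structural, were read beside the heart factors. Of 19 listed, 8 passed, 4 of them at least 2-fold higher and 3 lower in Nons than at day 0, and none of the 8 was 2-fold different with either hairpin. Of the 11 below the filter, 3 were higher and 3 lower in Nons than at day 0 by 2-fold and beyond counting error. Against Nons 1 of the 11 was higher and 4 lower with Smarca4.4, and 3 were lower with Smarca4.6. The most abundant were Des, Ttn and Actc1. Des (desmin) had 28 reads at day 0, 954 in Nons, 639 with Smarca4.4 and 457 with Smarca4.6, so that, as with Tbx20, Nons was the highest library. Actc1, cardiac actin, did not pass the filter with 0, 247, 58 and 72 reads, which put it at -2.13 (-2.57 to -1.72) and -1.45 (-1.85 to -1.07) against Nons. Ttn was at 0.83 and 0.99 above Nons, the opposite side to Tbx20. The heart muscle genes did not move as 1 group, as a few of the 19, picked after their values were seen, show. The myosin genes Myh6, Myl3 and Myl4 went from 7 to 224, from 0 to 139 and from 20 to 121 reads between day 0 and Nons, while the troponin genes Tnnt2 and Tnni1 went from 29 to 11 and from 170 to 7. With the hairpins Myl3 was at -1.52 (-2.01 to -1.04) and -1.62 (-2.19 to -1.08) against Nons, and Myh6 at 0.23 (-0.03 to 0.49) and 0.29 (0.01 to 0.56).

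For the endothelial and blood list, which bears on Kdr, 10 of 15 genes passed, 4 were at least 2-fold higher and 3 lower in Nons than at day 0, and none of the 10 was 2-fold different with either hairpin. Flt1, another VEGF receptor, which is also made by trophoblast, had 28 reads at day 0, 3467 in Nons, 3688 with Smarca4.4 and 2641 with Smarca4.6, against 6, 17, 15 and 20 for Kdr. Flt4 went from 24 to 872 reads and Eng from 770 to 559. Of the 5 genes below the filter, 2 were higher and 1 lower in Nons than at day 0 by 2-fold and beyond counting error, and 1 was higher than Nons with each hairpin. With Smarca4.4 this was Gata1, a factor of red cells, with 7 reads in Nons and 23 with the hairpin, at 1.67 (0.41 to 3.14). With Smarca4.6 it was Cdh5, the cadherin that defines endothelium, with 23 and 44 reads, at 1.26 (0.50 to 2.06). Both are named after their values were seen.

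Because Hand1 and Eomes are also trophoblast genes, a list of 13 extraembryonic genes was read beside them. Of the 13, 10 passed, 7 were at least 2-fold higher and 1 lower in Nons than at day 0, and the summed level was 296 CPM at day 0, 2018 in Nons, 2213 with Smarca4.4 and 1756 with Smarca4.6. No gene of the list was at 0 reads at day 6. Krt8 and Krt18, keratins of simple epithelia including trophoblast, made up most of the sum at day 6, with 35 and 43 reads at day 0 and 44103 and 25333 in Nons. Ahnak, the next in level, had 3642 and 18158. Further genes of the list, named after their values were seen, include the placental gene Plac1, the trophoblast factor Gata3 and the keratin Krt7, which went from 0 to 306, from 9 to 242 and from 45 to 2226 reads between day 0 and Nons, while Elf5, a factor that defines trophoblast stem cells, had 4 and 20. Cdx2, a trophoblast gene as well as a streak gene, was given above. None of the 13 was 2-fold different with either hairpin, and the medians of the 10 were 0.23 and -0.12. Some of them were on the same side of Nons as Hand1 with both hairpins: Plac1 was at 0.76 (0.55 to 0.97) and 0.69 (0.47 to 0.91), Tfap2c at 0.78 (0.65 to 0.91) and 0.47 (0.33 to 0.62), and Krt7 at 0.50 (0.42 to 0.57) and 0.19 (0.10 to 0.28). Unlike Hand1, Tfap2c was lower in Nons than at day 0, at -2.40 (-2.53 to -2.27), the 1 gene of the list at least 2-fold lower. Tfap2a was on the other side of Nons from Hand1 with both hairpins, at -0.78 (-1.28 to -0.29) and -0.63 (-1.16 to -0.12). Gata3 was below Nons too, at -0.17 (-0.44 to 0.10) and -0.84 (-1.18 to -0.50). Krt18 was at -0.007 and -0.42, Krt8 at 0.19 and -0.12, and Ahnak at 0.058 and -0.23. Igf2 and Ascl2, named after their values were seen, were at 0.56 and -0.12 and at 0.27 and 0.10. The part of such cells in the levels of Hand1 and Eomes was not tested.

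The genes most like each of the 4 members were sought over the 4 libraries, as the smallest Euclidean distance between log2 CPM values after removal of each gene's own mean. For T the nearest were Apln, Prrt3 and Ism2 at distances of 1.43, 1.66 and 1.80 log2 units, and no gene lay within 1 unit. Hand1 was nearest to 1200009I06Rik, Slitrk4 and 3830417A13Rik at 0.29, 0.50 and 0.63, with 36 genes within 1 unit. Apln, Slitrk4 and 3830417A13Rik lie on chromosome X. The study reports more expression from the FVB X chromosome with Smarca4 knockdown, and the part of this here was not tested. Tbx20 was nearest to Trnp1, Camk2d and Entpd2 at 0.12, 0.13 and 0.20, with 451 within 1 unit, and Eomes to Carhsp1, Ppp2r5b and Trim36 at 0.060, 0.061 and 0.062, with 1955. With only 4 libraries, the pattern of Eomes was met by many genes and that of T by none at this distance.

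The 250 bases before the transcript start were available for 7 members from RefSeq on GRCm38.p6, the assembly of mm10. They were searched on both strands for the TCF/LEF motif of Wnt signalling, CTTTGAT or CTTTGAA, the T-box half-site AGGTGT, and the TATA box TATAAA. Of all 32851 such windows, 7.48% held the first in either form, 11.8% the T-box half-site and 12.4% the TATA box. The E-box CANNTG bound by Hand factors was in 66.2%. The windows of T and Mesp1 are shown because they were the only ones of the 7 with TCF/LEF or T-box matches, and that of Tbx20 as a member that differed with both hairpins and held no match to any of these motifs, as was also so for Eomes. Capitals mark the TCF/LEF and T-box matches.
T, chr17:8434173-8434422, plus strand: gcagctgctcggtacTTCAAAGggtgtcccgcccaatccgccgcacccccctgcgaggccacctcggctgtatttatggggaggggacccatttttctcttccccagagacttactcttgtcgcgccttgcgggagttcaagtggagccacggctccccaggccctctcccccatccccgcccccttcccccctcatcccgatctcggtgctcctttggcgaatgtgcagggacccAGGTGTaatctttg
Mesp1, chr7:79793591-79793840, minus strand: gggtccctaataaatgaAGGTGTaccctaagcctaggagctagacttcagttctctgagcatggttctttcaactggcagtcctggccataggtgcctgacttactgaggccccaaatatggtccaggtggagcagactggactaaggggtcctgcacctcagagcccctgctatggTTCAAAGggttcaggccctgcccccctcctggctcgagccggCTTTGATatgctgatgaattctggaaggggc
Tbx20, chr9:24774304-24774553, minus strand: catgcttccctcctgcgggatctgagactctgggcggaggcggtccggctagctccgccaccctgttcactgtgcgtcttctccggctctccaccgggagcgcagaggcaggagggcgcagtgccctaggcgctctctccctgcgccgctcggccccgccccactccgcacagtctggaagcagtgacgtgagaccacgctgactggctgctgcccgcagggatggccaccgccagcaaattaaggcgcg
T held a TCF/LEF match from base -235 to -229 and a T-box half-site from -14 to -9, which overlaps an E-box from -15 to -10. Mesp1, at 0 or 1 reads, held TCF/LEF matches from -73 to -67 and -31 to -25 and a T-box half-site from -233 to -228, in a window of which 198 of the 250 bases lie inside the gene as the table lists it, since the RefSeq start lies downstream of the listed start. A match is a run of letters and not a bound site. Windows with no match show only that these letters are not there. The GC content of the 7 windows ran from 46.4% for Eomes to 68.8% for Tbx20, around a median of 52.4% over all windows, and 6 of the 7 held at least 8 CpG dinucleotides where the median window held 6, with Mesp1 the exception at 2.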

How the data were processed

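RNA was measured by paired-end RNA-seq in 4 libraries. Per the study's methods, the authors trimmed reads with trim_galore, aligned them with HISAT2 or tophat to mm10 with FVB/NJ and CAST/EiJ differences masked, and quantified genes with the RNA-seq pipeline of SeqMonk. The strand setting and the annotation are not given in the sources used here. The deposited values are log2 CPM, scaled to the library total, with 0 reads written as 0.9 of a read. Back-transformed values were whole multiples of 1 step, which gave reads and totals: between 99.94% and 99.98% of nonzero values were within 0.05 of a whole read, and 100% of those up to 1000 reads.

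Each difference subtracts the deposited log2 CPM of 1 library from that of another. The filter kept genes whose mean log2 CPM over the 4 libraries was 0 or more, and differences of 2-fold or more were counted. Shares over all genes were taken among those that passed, so counts of list genes below the filter have none beside them. With 1 library per group there was no test and no p-value. Intervals at 95% came from the reads and, like the floor of 3 reads, hold counting error alone: PCR copies and the ends of a pair need not be separate molecules. No other gene listed in the table overlapped a member. The members and the 9 gene lists (primitive streak, endothelial and blood, heart field, muscle structure, extraembryonic, endoderm, pluripotency, fibroblast and BAF ATPases) were chosen with earlier results of these data known. The genes named are the members, Smarca4, the 3 most abundant of each list in Nons, list genes that passed 2-fold in 1 direction under both hairpins, the 3 genes nearest each member with 50 or more reads in 2 or more libraries, and others marked as chosen after seeing their values. Exon lengths came from GENCODE M21 (GRCm38). Alternatives were other filters, thresholds, 1 CPM added before logs, the autosomal median as centre, and scaling by the trimmed mean of M values (TMM). Calculations were tested on simulated reads. Scripts ran in Python 3.11.15 with scipy 1.17.1 for intervals, numpy 2.4.6, matplotlib 3.10.9 for plots, and pandas 2.3.3.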

Additional observations from a re-analysis of the deposited data

Results flagged for a closer look

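T stood on opposite sides of Nons with the 2 hairpins, at -0.63 and 2.66, and the direct log2 difference of Smarca4.4 from Smarca4.6 was -3.29. The counting interval of the first value, -1.81 to 0.51, included 0. Kdr was on opposite sides as well, at -0.22 and 0.56, with a direct difference of -0.78 whose counting interval, -1.85 to 0.25, included 0. Each hairpin is 1 library, so these differences between hairpins were not tested. The Y-linked genes Ddx3y, Uty, Eif2s3y and Kdm5d, which no comparison used, together had 0 reads at day 0 but 106 with Nons, 156 with Smarca4.4 and 165 with Smarca4.6.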

How the results depend on the processing

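No paired analysis was possible because there is only 1 library in any group and a single replicate number, and no replicate could be left out either. TMM scaling and centring on the autosomal median changed no count of members past 2-fold and shifted differences by at most 0.061 on the log2 scale. They moved only Smarca4 in Smarca4.6 outside its interval, to -0.45 and -0.46. From day 0 to Nons, a mean log2 CPM of at least 3 left 1 member, Eomes, so 1 was higher and 0 lower, with a median of 2.15. Without a filter 5 members were lower and the median changed sign, to -0.56. Mixl1 and the 3 members under the floor, Mesp1, Hand2 and Tbx5, were then counted as lower beside T. Mesp1 and Tbx5 had equal reads in the 2 libraries and Hand2 had 0 against 2, so the sign of this median reflects depth. A pseudocount of 1 CPM gave a median of 2.28. It gave -2.30 for T, 2.55 for Hand1 and 2.90 for Tbx20. In Smarca4.4 the stricter filter left 0 members higher, and a threshold of 1.5-fold gave 2 lower. In Smarca4.6 the stricter filter left 0 higher and 0 lower with a median of -0.31. Without a filter 2 were higher there, as with 1.5-fold, and the median was 0.40. Medians without a filter hold the members under the floor in every contrast. A pseudocount left 0 lower in Smarca4.6, where Tbx20 became -0.98, with T at 1.33 and Mixl1 at 0.74. For Smarca4.4 against Smarca4.6, 1.5-fold gave 1 higher and a 99% interval left 1 higher beyond counting error. In that contrast 2 were lower and the median was -0.29 without a filter, 0 were lower with the stricter filter, and T was -1.48 with a pseudocount. With the longest transcript in place of merged exons all 7 ranked members kept their rank in Nons. Members under about 1 CPM are limited by depth, most of all at day 0.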

Other observations

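Other cell types were read from 2 further lists. In the endoderm list 2 of 10 genes passed the filter, 1 was at least 2-fold higher in Nons than at day 0, and neither of them was 2-fold different with either hairpin. Of the 8 below the filter, 3 were lower in Nons than at day 0 by 2-fold and beyond counting error, 3 were higher than Nons with Smarca4.4 and 2 with Smarca4.6. Those 2, named after their values were seen, were higher with both hairpins: Cxcr4, a chemokine receptor, had 12 reads in Nons and 35 and 26 with the hairpins, differences whose intervals were 0.52 to 2.58 and 0.40 to 2.56, and Sox7 was at 1.42 (0.60 to 2.32) and 1.05 (0.13 to 2.01). Dab2, an endocytic adaptor of primitive endoderm, had 34 reads at day 0, 1010 in Nons, 1231 with Smarca4.4 and 930 with Smarca4.6. Sox17, the endoderm factor, had 27, 74, 103 and 98 reads and Foxa1 10, 22, 20 and 15, while Ttr, named after its values were seen, had 0 in every library. Scaled for depth, Nons differed from day 0 by 0.16 (-0.50 to 0.85) for Sox17 and -0.16 (-1.30 to 1.08) for Foxa1. The median of the 2 that passed was 0.34 in Smarca4.4 and 0.47 in Smarca4.6.

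In the fibroblast and mesenchyme list 7 of 10 genes passed, 5 were at least 2-fold higher and none lower in Nons than at day 0, and 1 of the 7 was lower with each hairpin. Of the 3 below the filter, 1 was higher in Nons than at day 0 and 1 was higher than Nons with Smarca4.6, by 2-fold and beyond counting error. The gene that was lower was Acta2, smooth muscle actin, with 0 reads at day 0, 2888 in Nons, 1459 with Smarca4.4 and 650 with Smarca4.6, or -1.03 and -1.83 against Nons. Tagln, a smooth muscle actin-binding protein, had 7, 38984, 30035 and 19625 reads and differed from Nons by -0.42 and -0.66. Acta2, Tagln and Tbx20 shared the order of day 6 levels from Nons through Smarca4.4 down to Smarca4.6. Eomes and Des were also highest in Nons among the day 6 libraries, so that part was not particular to these genes. Their differences between Smarca4.4 and Smarca4.6 were within counting error, at 0.11 (-0.0037 to 0.23) for Eomes and 0.11 (-0.06 to 0.29) for Des. Vim went the other way, at 0.49 and 0.74. Of the 2 BAF ATPases, Smarca2 had 361, 167, 199 and 146 reads and differed from Nons by 0.21 and 0.13.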
